A study of Homo sapiens with 24 samples.

Results

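Induction of PTF1a was followed in Panc-1, an established cell line from a human pancreatic ductal carcinoma, by comparing RNA-seq counts of Tet-PTF1a cells kept 72 h in 1 µg/ml doxycycline (Dox) with counts of the same cells without it (Control). The members are the 4 Dox and 4 Control libraries that the labels name Tet-PTF1a, 8 of the 24 libraries in the series. The other 16 are Dox and Control libraries of 2 further Panc-1 lines, Tet-One and Tet-MIST1. Tet-PTF1a cells carry a Tet-One plasmid in which a tetracycline-regulated promoter drives the mouse PTF1a open reading frame with a myc tag, Tet-MIST1 cells carry it with the rat MIST1 open reading frame and a myc tag, and Tet-One cells carry the empty plasmid. All lines came from individual clones selected in puromycin and grew in medium with tetracycline-depleted serum. The passage number was 32 for Tet-PTF1a and Tet-One cells and 33 for Tet-MIST1 cells, and a difference between the lines cannot be told apart from a difference between their clones.

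PTF1a is a basic helix-loop-helix (bHLH) transcription factor. With an E protein as its bHLH partner and RBPJ or its pancreatic relative RBPJL as a further subunit it forms the PTF1 complex, which binds an E box next to a TC box. In the pancreas PTF1a is needed in early progenitors and later drives the genes of the enzyme-secreting acinar cell, and in the spinal cord, cerebellum and retina it directs precursors toward inhibitory neurons. The authors describe Panc-1 cells as thought to come from duct cells, and they detected no PTF1a protein without Dox. The comparison thus shows which genes respond when the factor is expressed in such a cell.

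The libraries held from 18078331 to 43018494 counts in Control and from 17210989 to 32383375 in Dox. All 9 markers listed for Panc-1 epithelial carcinoma cells were measured, with a summed level of 9522 to 9900 CPM (counts per 1e6 counts of the TMM-scaled library) in Control and 5972 to 6112 CPM in Dox. Of the listed markers of leukocytes 3 of 10 were measured, of endothelial cells 1 of 7, of fibroblasts and stellate cells 5 of 10 and of skeletal muscle 2 of 12. PTF1A itself (hg19 chr10:23481460-23483181, plus strand) gave 0.0472, 0.0560, 0 and 0.0525 CPM in the Control libraries and 5.46, 6.97, 2.73 and 5.12 CPM in the Dox libraries. The Control libraries held at most 2 counts each, so that PTF1A was at least 43.5-fold higher with Dox (FDR 1.32e-05). The reads were counted on the human gene, whereas the plasmid carries the mouse sequence.

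Dox changed the level of many genes in Tet-PTF1a cells, most of them by little. Of 14053 genes tested, 6775 (48.2%) were differentially expressed genes (DEGs, FDR under 0.05, where FDR is the Benjamini-Hochberg adjusted p of edgeR's quasi-likelihood test), 3344 induced (23.8%) and 3431 repressed (24.4%). Induced genes made up 49.4% of the DEGs after TMM scaling and 61.9% after scaling by library size, which raised the median log2 fold change of all genes by 0.0368. Only 501 DEGs (7.39%) changed at least 2-fold, 287 of them induced (2.04% of the genes tested) and 214 repressed (1.52%). The strongest changes were inductions. At least 4-fold changes were found for 78 induced and 14 repressed DEGs, and at least 8-fold changes for 31 induced DEGs and no repressed DEG. In 286 of the 287 induced and in all 214 repressed 2-fold DEGs the 4 Dox libraries lay on one side of the 4 Control libraries, as they did for 42.3% of all genes tested. The induced exception, singled out after its values were seen, was PRDM1, a transcriptional repressor, which went from 1.23 ± 0.306 to 2.58 ± 0.792 CPM. The replicate libraries lay close together, with a biological coefficient of variation of 2.80%. The DEGs nearest to the 2-fold limit were MCF2L2, with a log2 fold change of 1.00 inside it, and RASGEF1C, with 0.99 outside it, among induced genes. Among repressed genes they were PLEKHA4, with -1.00 ± 0.154 inside it, and GATA3, with -1.00 ± 0.128 just outside it, on the same scale. One gene had a 2-fold estimate and was not a DEG, the microRNA gene MIR6087, which had 1285 ± 324 to 634 ± 350.3 CPM from Control to Dox (log2 fold change -1.03 ± 0.456, FDR 0.115) and is named after its values were seen.

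**Figure D1:**
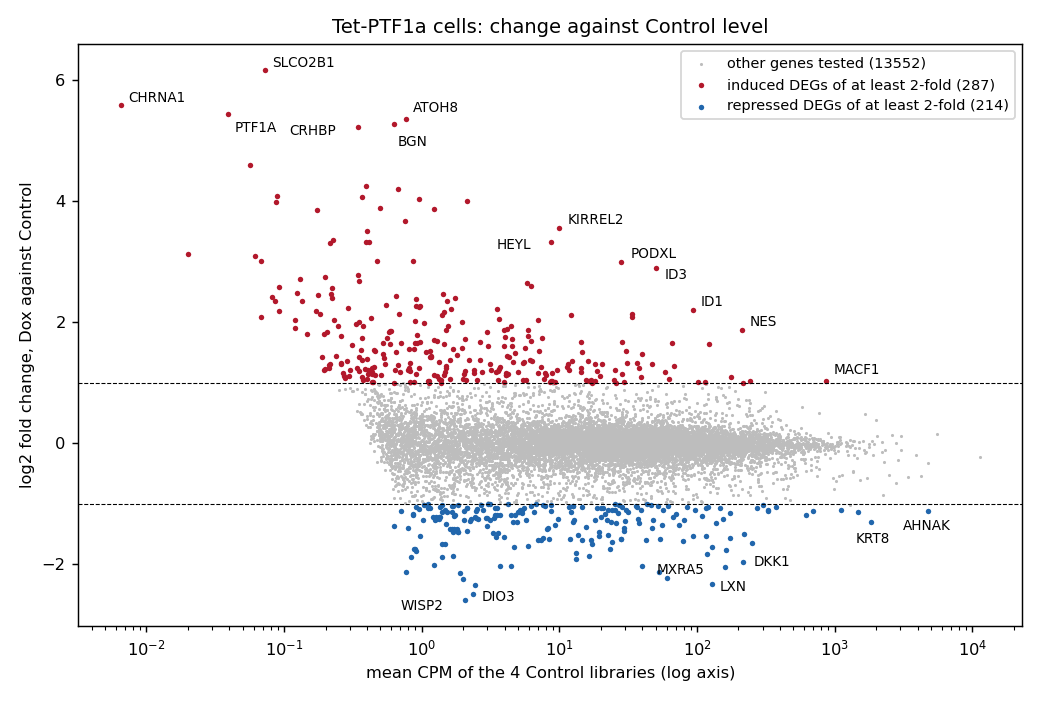
Change of each gene in Tet-PTF1a cells. The horizontal axis is the mean CPM of the 4 Control libraries on a log scale and the vertical axis is the fitted log2 fold change of Dox against Control, with dashed lines at a 2-fold change. Red points are the 287 induced and blue points the 214 repressed DEGs of at least 2-fold, and grey points are all other genes tested. The largest inductions sit at the left, among genes with few reads in Control, where the fitted fold changes of genes with almost no Control counts depend on the prior count, and no repressed gene lies below -2.58.

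Induced and repressed 2-fold DEGs differed in where they started. The median Control level was 1.23 CPM over the 287 induced genes, 7.57 CPM over the 214 repressed genes and 27.5 CPM over all genes tested. Of the induced genes 132 had a Control mean below 1 CPM and 49 above 10 CPM, while of the repressed genes 13 lay below 1 CPM and 98 above 10 CPM. CPM is not corrected for gene length and stands here for the number of reads behind a value. The median exon length was 3408 bases for induced, 3043.5 bases for repressed and 3220 bases for all genes. Of the 1010 genes below 1 CPM in Control, 13.1% were induced at least 2-fold and 1.29% were repressed at least 2-fold. A gene below the filter in Control could only be tested if Dox raised it, so that the filter favours induced genes in this lowest class. From 1 to 10 CPM both shares were close to each other, at 3.24% induced and 3.15% repressed of 3275 genes. From 50 CPM upward repressed genes had the larger share, 0.884% against 0.267% of 4865 genes, although 58.1% of these genes were DEGs. Reads of the 287 induced genes rose from between 0.363% and 0.370% of all counts in the Control libraries to between 1.02% and 1.03% in the Dox libraries. Reads of the 214 repressed genes went from between 1.71% and 1.74% to between 0.742% and 0.775%. Both sets were chosen on this contrast, so that these shares describe the size of the response and test nothing.

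**Figure D2:**
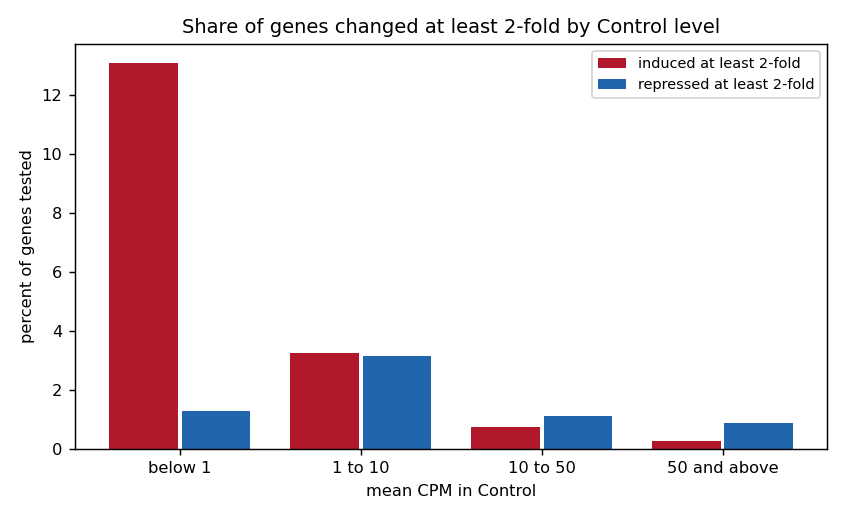
Share of genes changed at least 2-fold, by level in Control. The horizontal axis gives 4 classes of mean Control CPM and the vertical axis the percent of the genes tested in that class, with red bars for induced and blue bars for repressed DEGs. Induced genes reach 13.1% below 1 CPM and 0.267% at 50 CPM and above, and repressed genes stay between 0.884% and 3.15%.

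The 15 most induced genes came from unrelated tissues and included a transporter, a muscle receptor, a bHLH factor, matrix proteins, a stress hormone carrier and a digestive protease. SLCO2B1 (chr11:74862032-74917445), an organic anion transporter, gave 0.0472, 0.168, 0.0496 and 0.0262 CPM in the Control libraries and 8.84, 8.48, 11.4 and 9.75 CPM in the Dox libraries. With no more than 3 counts per Control library, the gene was at least 82.5-fold higher with Dox (FDR 3.66e-31). CHRNA1 (chr2:175612323-175629200), the alpha subunit of the acetylcholine receptor of skeletal muscle, gave 0, 0, 0 and 0.0262 CPM in the Control libraries and 3.16, 5.18, 2.88 and 4.39 CPM in the Dox libraries. A single Control read was counted in 1 of the 4 libraries, and CHRNA1 was at least 33.5-fold higher with Dox (FDR 1.85e-19). Control counts of 3 or fewer in every library were also found for 2-fold DEGs POMC, the precursor of ACTH and melanocyte-stimulating hormone, at least 6.4-fold higher, and C1orf95, at least 9.05-fold higher.

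ATOH8 (chr2:85980909-86018506), a bHLH factor of the atonal family, gave 0.542, 0.952, 0.744 and 0.813 CPM in the Control libraries and 33.2, 32.5, 32.8 and 32.4 CPM in the Dox libraries. The 4 Dox values were within 1 CPM of each other and far above all Control values, a log2 fold change of 5.35 ± 0.0927 (SE, as after every log2 fold change below) with FDR 7.24e-43. BGN, the small proteoglycan biglycan, gave 0.472, 0.896, 0.744 and 0.394 CPM in the Control libraries and 25.4, 24.9, 23.7 and 23.9 CPM in the Dox libraries. CRHBP, which binds corticotropin-releasing hormone, gave 0.330, 0.448, 0.248 and 0.341 CPM in the Control libraries and 14.4, 17.4, 14.3 and 15.1 CPM in the Dox libraries. Neither gene had a Control value above 1 CPM or a Dox value below 14 CPM, and the log2 fold changes were 5.27 ± 0.110 for BGN and 5.22 ± 0.136 for CRHBP. PRSS1, the cationic trypsinogen of acinar cells, gave 0.0943, 0.0560, 0.0496 and 0.0262 CPM in the Control libraries and 2.81, 3.11, 3.19 and 3.47 CPM in the Dox libraries, a log2 fold change of 4.59 ± 0.293. PRSS1 has close copies to which its reads could also be assigned. Fibrillin 3 (FBN3, 4.25 ± 0.161), the collagen V chain COL5A3 (4.20 ± 0.122), the procollagen protease ADAMTS2 (4.07 ± 0.156), the muscle phosphoglycerate mutase PGAM2 (4.09 ± 0.290), nephrin (NPHS1, 4.03 ± 0.108), the monocarboxylate transporter relative SLC16A12 (3.98 ± 0.345), the unnamed open reading frame C11orf96 (3.89 ± 0.147) and the antisense RNA TMEM51-AS1 (4.01 ± 0.0768), on the log2 scale, completed the 15 genes. The exons of TMEM51-AS1 overlap those of KAZN, and the sources used here do not say whether the counting used strand, so that its reads and those of the overlapping gene cannot be told apart.

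**Figure D3:**
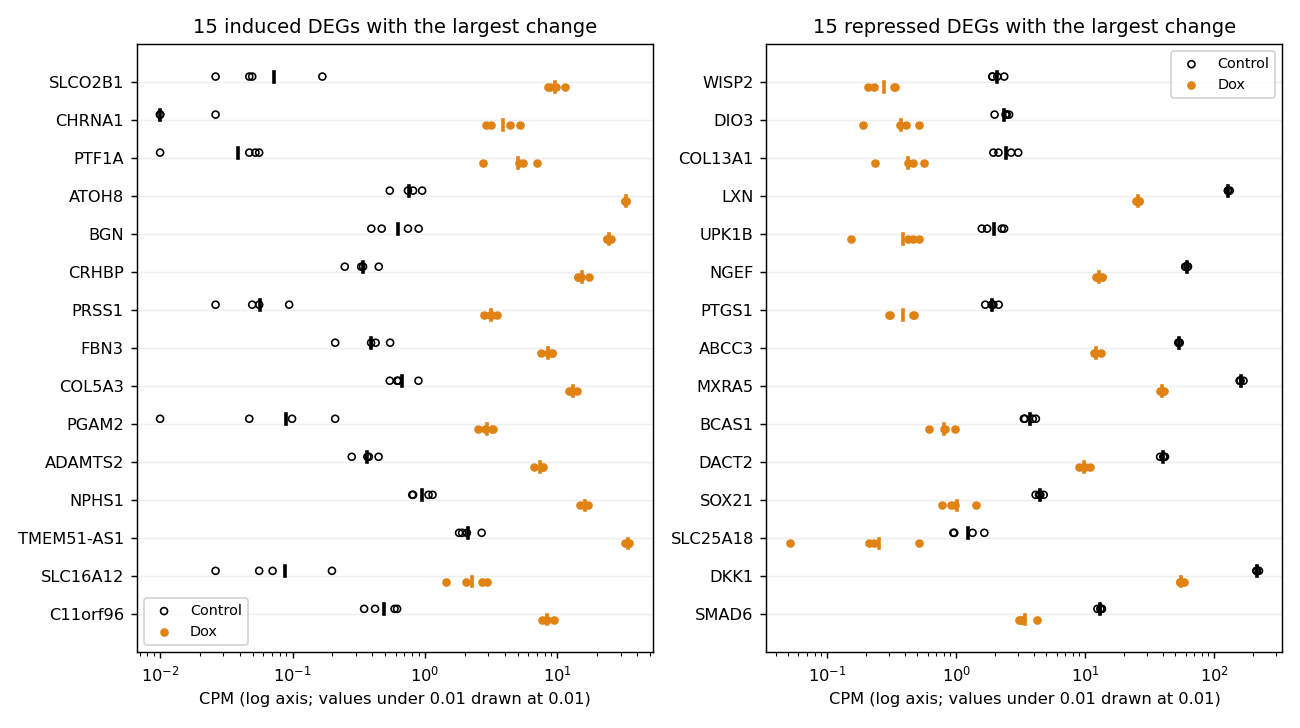
Level of the 15 most induced (left) and 15 most repressed (right) DEGs in each library. The horizontal axis is CPM on a log scale, open points are the 4 Control and orange points the 4 Dox libraries, bars are group means, and values below 0.01 CPM are drawn at 0.01. In every row the Control and Dox points form separate clusters, and the gap is wider for the induced genes, whose Control points mostly lie below 1 CPM.

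The promoters of the induced genes were searched for the sequences that the PTF1 complex is known to bind. Windows of 250 bases upstream and 50 bases downstream of each annotated start were taken from RefSeq (GRCh38.p14) and read on both strands, and 203 of the 287 induced, 143 of the 214 repressed and 10993 of the 14053 tested genes had at least 1 window. The E box CAGCTG, one form of the general E box CANNTG, occurred in 24.7% of 292 windows of induced genes (95% exact interval 19.8 to 30%) and in 18.1% of 221 windows of repressed genes (13.3 to 23.8%), against 17.4% of 15987 windows of all tested genes and 17.9% of all 35116 windows. The general E box occurred in 69.5%, 61.5% and 61.2% of the windows of induced, repressed and tested genes and in 68.7% of all windows. A TC box (TGGGAAA or its complement TTTCCCA) occurred in 6.51%, 11.8% and 7.15%, and in 7.92% of all windows. An E box and a TC box with midpoints 10 to 12 or 20 to 22 bases apart were found in a single induced window, that of TNFRSF9, a receptor of the TNF family, and in 2 repressed windows, those of HAS3, a hyaluronan synthase, and SLFNL1-AS1. These are 0.342% and 0.905% of the windows, against 0.188% for tested genes and 0.251% for all windows, numbers too small to put in order. Intervals cover counting error only, and some genes contribute several windows that overlap.

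By gene, with any of its windows counted, CAGCTG was held by 66 of 203 induced 2-fold DEGs and by 2468 of 10993 tested genes. From 1000 bases before to 100 after the start, 8 of the 15 most induced genes held it. In that longer window it occurred in 52.8% of induced 2-fold DEGs and 41.6% of tested genes. Of the same 15 genes 13 had a shorter window. Of these, 10 held CANNTG, 9 held CAGCTG, 1 held a TC box and none held both boxes at the stated distances. The first 6 by fold change with CAGCTG are printed with 250 bases upstream and 30 bases downstream of the start on the gene's strand. CAGCTG is in capitals. Positions are counted from the start, and a match is a description of letters and not of binding. SLCO2B1 (chr11:75159582-75159861, plus strand) holds it at position -159, CHRNA1 (chr2:174764443-174764722, minus strand) at -75, ATOH8 (chr2:85753741-85754020, plus strand) at -215, COL5A3 (chr19:10010475-10010754, minus strand) at -82, PGAM2 (chr7:44065538-44065817, minus strand) at -223, and NPHS1 (chr19:35852475-35852754, minus strand) 3 times, the first at -228 and the next at -82.
SLCO2B1: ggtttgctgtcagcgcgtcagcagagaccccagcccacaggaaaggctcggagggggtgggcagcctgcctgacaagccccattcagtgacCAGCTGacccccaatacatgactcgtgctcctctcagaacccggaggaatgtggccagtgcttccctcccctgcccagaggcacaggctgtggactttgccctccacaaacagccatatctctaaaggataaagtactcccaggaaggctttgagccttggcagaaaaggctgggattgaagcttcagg
CHRNA1: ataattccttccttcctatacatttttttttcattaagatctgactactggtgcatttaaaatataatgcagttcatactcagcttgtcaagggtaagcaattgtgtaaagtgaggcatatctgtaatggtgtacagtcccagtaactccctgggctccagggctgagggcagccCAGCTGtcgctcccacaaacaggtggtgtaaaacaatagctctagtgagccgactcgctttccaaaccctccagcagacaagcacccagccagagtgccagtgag
ATOH8: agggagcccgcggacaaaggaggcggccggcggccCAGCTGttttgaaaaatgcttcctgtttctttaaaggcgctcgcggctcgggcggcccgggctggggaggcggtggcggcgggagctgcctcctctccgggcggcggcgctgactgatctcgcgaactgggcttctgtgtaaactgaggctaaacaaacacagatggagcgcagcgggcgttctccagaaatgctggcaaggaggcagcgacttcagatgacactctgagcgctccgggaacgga
COL5A3: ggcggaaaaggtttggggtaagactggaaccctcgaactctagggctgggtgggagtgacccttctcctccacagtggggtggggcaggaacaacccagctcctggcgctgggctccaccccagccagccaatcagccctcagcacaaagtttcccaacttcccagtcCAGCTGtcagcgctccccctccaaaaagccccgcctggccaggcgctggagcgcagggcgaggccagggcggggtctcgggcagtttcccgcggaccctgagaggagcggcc
PGAM2: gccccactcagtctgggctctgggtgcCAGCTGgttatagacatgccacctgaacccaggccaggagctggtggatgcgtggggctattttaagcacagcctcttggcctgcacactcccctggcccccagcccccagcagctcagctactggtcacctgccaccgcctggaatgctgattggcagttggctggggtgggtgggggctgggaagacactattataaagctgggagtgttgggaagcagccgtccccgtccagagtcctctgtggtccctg
NPHS1: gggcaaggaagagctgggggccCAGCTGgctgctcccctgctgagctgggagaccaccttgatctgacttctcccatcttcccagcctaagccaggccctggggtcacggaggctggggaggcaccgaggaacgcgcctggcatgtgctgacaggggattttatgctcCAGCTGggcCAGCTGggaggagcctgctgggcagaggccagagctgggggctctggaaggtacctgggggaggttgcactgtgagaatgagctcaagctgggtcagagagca

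Several bHLH factors and their inhibitors changed at least 2-fold. Of 41 class II factors listed 9 were tested. Of these, 4 were induced (44.4%, against 23.8% of all genes), with PTF1A and ATOH8 in front, and 2 repressed (22.2%, against 24.4%). PTF1A is the factor that Dox was meant to induce, so that its place among the induced was set by the design. BHLHA15, the human gene of MIST1, went from 0.270 ± 0.168 to 0.673 ± 0.0455 CPM (log2 fold change 1.11 ± 0.336, FDR 0.00100), a low level at which the 4 Control libraries spread from 0.0992 to 0.448 CPM. BHLHE41, a transcriptional repressor of the circadian clock, fell from 93.6 ± 2.75 to 32.1 ± 0.818 CPM (-1.54 ± 0.0350 on the log2 scale). The inhibitors of differentiation ID1, ID2 and ID3, which pair with E proteins and keep them from DNA, were all induced. ID1 gave 83.4, 91.5, 99.1 and 100.5 CPM in the Control libraries and 439.8, 428, 438 and 425 CPM in the Dox libraries. ID2 gave 4.95, 6.55, 5.71 and 5.9 CPM in the Control libraries and 39.1, 34.6, 36.8 and 33.9 CPM in the Dox libraries. ID3 gave 44.6, 52.2, 51.1 and 52 CPM in the Control libraries and 362, 370.2, 361 and 384 CPM in the Dox libraries. No Dox library of any of them came near the Control libraries, and the log2 fold changes were 2.21 ± 0.0595 for ID1, 2.65 ± 0.0654 for ID2 and 2.90 ± 0.0442 for ID3. The E protein gene TCF4 was repressed, from 12.4 ± 0.686 to 8.48 ± 0.655 CPM (-0.54 ± 0.0709 on the log2 scale), while TCF3 (-0.05 ± 0.0271, FDR 0.102) and TCF12 (-0.02 ± 0.0279, FDR 0.486) did not pass the test. Of 18 factors of the acinar lineage and their partners, 11 were induced (61.1%, against 23.8% of all genes) and 1 was repressed (5.56%, against 24.4%). The induced members of this list again include PTF1A. NR5A2, a nuclear receptor of acinar cells, rose from 39.2 ± 0.549 to 77.8 ± 3.42 CPM, XBP1, a factor of the unfolded protein response, from 52.1 ± 6.38 to 102 ± 5.32 CPM, and FOXA1, an endoderm factor, from 1.04 ± 0.181 to 4.54 ± 0.390 CPM (1.98 ± 0.144 on the log2 scale). FOXA2, its close relative, was repressed (-0.55 ± 0.0364).

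Genes that answer to bone morphogenetic proteins (BMPs) moved in both directions. The ID genes are classical BMP targets, and SMAD1, a carrier of the BMP signal to the nucleus, rose from 25.2 ± 1.49 to 58.7 ± 1.1 CPM (log2 fold change 1.20 ± 0.0406). SMAD6, an inhibitor of the same pathway and itself a BMP target, gave 12.4, 13.4, 13.4 and 13.1 CPM in the Control libraries and 4.25, 3.06, 3.19 and 3.26 CPM in the Dox libraries. It was lower in all 4 Dox libraries, a log2 fold change of -1.92 ± 0.0879 (FDR 1.12e-24). Over the 23 SMAD and BMP response genes tested, 9 were induced (39.1%, against 23.8% of all genes), 7 of them at least 2-fold. Of the same 23 genes 7 were repressed (30.4%, against 24.4%). Of 20 ligands of the TGF-beta and BMP family tested, 13 were induced (65%, against 23.8% of all genes) and 3 repressed (15%, against 24.4%), with a median log2 fold change of 0.28 against 0.001 over all genes. BMP8A rose from 1.23 ± 0.208 to 18.7 ± 1.14 CPM (3.87 ± 0.0990, with exons that overlap PPIEL), TGFB3 from 7.42 ± 0.784 to 24.5 ± 0.624 CPM (1.74 ± 0.0630), and BMP3 from 0.972 ± 0.401 to 3.57 ± 0.504 CPM (1.68 ± 0.175). LEFTY1, a secreted Nodal antagonist, was induced (1.74 ± 0.278) and INHBB, the beta B chain of activins and inhibins, was repressed (-1.60 ± 0.0521) on the log2 scale. Receptors and antagonists gave 7 induced (33.3%) and 9 repressed (42.9%) genes of 21, a majority that turned to 7 and 5 with library size scaling. The BMP antagonist chordin (CHRD) was induced (1.34 ± 0.0804) and the pseudoreceptor BAMBI was repressed (-0.86 ± 0.265).

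Notch pathway genes were induced far more often than repressed. RBPJ serves both the Notch receptor and the PTF1 complex, and whether this sharing bears on the changes was not tested. Of 38 listed genes 33 were tested. Of these, 19 were induced (57.6%, against 23.8% of all genes), 7 of them at least 2-fold, and 3 were repressed (9.09%, against 24.4%). The receptor NOTCH1 gave 34.1, 35.7, 37.5 and 38.1 CPM in the Control libraries and 92.9, 94.5, 93.2 and 86.7 CPM in the Dox libraries. All Dox values lay above 86 CPM and all Control values below 39 CPM, a log2 fold change of 1.33 ± 0.0365. Among the targets that encode bHLH repressors, HEYL gave 8.79, 8.4, 8.49 and 8.9 CPM in the Control libraries and 83.7, 87, 88.5 and 91.2 CPM in the Dox libraries. This 10-fold rise (log2 fold change 3.32 ± 0.0449, FDR 5.98e-47) was followed by HEY1, which rose from 4.55 ± 0.336 to 14.8 ± 0.482 CPM (1.72 ± 0.0762), and HES7, from 2.1 ± 0.147 to 4.38 ± 0.599 CPM (1.05 ± 0.126). HES1, the best known Notch target of pancreatic progenitors, was nearly level at 36.5 ± 1.29 to 39.7 ± 1.14 CPM (0.12 ± 0.0398, FDR 0.0107). The ligands DLL1 (1.20 ± 0.100) and DLL4 (1.02 ± 0.196) and the fringe glycosyltransferase LFNG (1.04 ± 0.0486) were induced at least 2-fold on the log2 scale of the fit, and the feedback inhibitor NRARP rose by 0.79 ± 0.0437. RBPJ itself was induced only from 69.8 ± 1.8 to 77.9 ± 2.17 CPM (0.16 ± 0.0314).

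Secreted Wnt inhibitors were split. DKK1, an antagonist of the Wnt coreceptors, gave 222, 214, 211 and 213 CPM in the Control libraries and 58.2, 54, 54.6 and 54.1 CPM in the Dox libraries, with no overlap between the groups and a log2 fold change of -1.96 ± 0.0290 (FDR 3.04e-45). SFRP1, a secreted decoy for Wnt proteins, was also repressed (-1.10 ± 0.0598), whereas its relatives SFRP4 (3.33 ± 0.180, from 0.395 ± 0.0751 to 4.57 ± 0.470 CPM) and SFRP5 (1.17 ± 0.121) were induced. The Dishevelled-binding proteins parted as well, with DACT1 induced from 0.399 ± 0.121 to 5.2 ± 0.412 CPM and DACT2 repressed from 40.1 ± 1.48 to 9.82 ± 0.835 CPM. Of 29 Wnt ligands and inhibitors tested 10 were induced (34.5%, against 23.8% of all genes) and 9 repressed (31%, against 24.4%). WNT9A was an induced ligand (1.26 ± 0.0683). Sonic hedgehog (SHH), a ligand made by pancreatic carcinoma cells, fell from 7.32 ± 0.455 to 2.38 ± 0.254 CPM (-1.60 ± 0.108). Its pathway had 5 induced and 5 repressed genes of 11 (45.5% each, against 23.8% and 24.4% of all genes). Of the epidermal growth factor family, the receptor ERBB3 (1.18 ± 0.0795) and its ligand NRG4 (1.21 ± 0.306) were induced and the ligand NRG1 (-1.14 ± 0.0766) was repressed on the log2 scale. Of 11 fibroblast growth factor ligands and receptors, 1 was induced (9.09%, against 23.8% of all genes) and 6 were repressed (54.5%, against 24.4%). Their median log2 fold change was -0.41.

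Single genes of skeletal muscle were induced from low levels. Besides CHRNA1 and PGAM2, the calcium sensor of slow muscle TNNC1 gave 0.707, 0.336, 0.844 and 0.709 CPM in the Control libraries and 3.62, 4.62, 3.91 and 3.84 CPM in the Dox libraries. Muscle creatine kinase (CKM) gave 0.141, 0, 0.0992 and 0.105 CPM in the Control libraries and 1.03, 0.754, 0.876 and 0.731 CPM in the Dox libraries. Both were higher in all Dox libraries and stayed low, with log2 fold changes of 2.44 ± 0.170 for TNNC1 and 2.35 ± 0.390 for CKM. Myosin-binding protein C of fast muscle, MYBPC2, was induced (2.41 ± 0.261), and myoglobin (MB) was repressed from 0.894 ± 0.221 to 0.202 ± 0.113 CPM (-1.74 ± 0.347). In all, 24 of 73 sarcomere and muscle enzyme genes were tested, with a median log2 fold change of 0.05. Of these, 7 were induced and 7 repressed (29.2% each, against 23.8% and 24.4% of all genes). Of 12 defining muscle markers the table held CKM and MYH3, whose summed level was 1.79 to 2.34 CPM in Control and 2.16 to 3.62 CPM in Dox, and embryonic myosin MYH3 did not pass the test (0.00 ± 0.163). MYOD1 and MYOG, the factors that define the lineage, were not among the 14053 genes tested. The authors had kept only genes over 0.5 CPM in 4 or more samples. Around the nerve-muscle synapse 31 genes were listed and 14 tested. Of these, 7 were induced (50%, against 23.8% of all genes) and 3 repressed (21.4%, against 24.4%). CHRNA1, and CKM in the muscle list, lay under the filter level of 0.5 CPM in every Control library. They could only be tested because Dox raised them. The nicotinic subunit CHRNA6 gave 0.354, 0.448, 0.595 and 0.499 CPM in the Control libraries and 3.96, 4.52, 4.12 and 4.26 CPM in the Dox libraries, a log2 fold change of 3.02 ± 0.175 with no overlap. DOK7, an activator of the synaptic kinase MuSK (1.73 ± 0.219), and the cholinesterase BCHE (1.23 ± 0.0943) were induced as well.

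Neural genes included single strong inductions, while several neural lists had negative medians. Of 42 synaptic adhesion and scaffold genes 15 were induced (35.7%, against 23.8% of all genes), 11 of them at least 2-fold. On the same list 13 were repressed (31%, against 24.4%), and the median log2 fold change was 0.09. The calcium-binding cadherin CLSTN2 (2.71 ± 0.332), the scaffold SHANK1 (2.34 ± 0.366) and the adhesion molecule NRCAM (2.14 ± 0.308) were induced. The potassium channel KCNA2 was induced from 0.342 ± 0.0925 to 2.79 ± 0.809 CPM. Over 42 potassium channel subunits, however, 7 were induced (16.7%, against 23.8% of all genes) and 17 repressed (40.5%, against 24.4%). Their median log2 fold change was -0.20. Over 18 sodium and calcium channel subunits 2 were induced (11.1%, against 23.8% of all genes) and 8 repressed (44.4%, against 24.4%). The calcium channel subunits CACNA1D (-1.63 ± 0.0650), CACNA1G (-1.57 ± 0.0976) and CACNG4 (-1.62 ± 0.0420) and the NMDA receptor subunit GRIN2A (-1.44 ± 0.0562) were all repressed at least 2-fold. Of the 33 genes listed for the inhibitory neurons that PTF1a specifies, 10 were tested, 3 induced (30%) and 5 repressed (50%). Their median log2 fold change was -0.17. Of 22 receptors of glutamate, GABA and monoamines 4 were induced (18.2%) and 9 repressed (40.9%), with a median of -0.19. Nestin (NES), an intermediate filament of neural and other progenitors, gave 207, 219, 214 and 215 CPM in the Control libraries and 795, 775, 755 and 802 CPM in the Dox libraries. It was more than 3-fold higher in every Dox library (log2 fold change 1.87 ± 0.0229, FDR 8.74e-49). Among 57 axon guidance genes 26 were induced (45.6%, against 23.8% of all genes) and 14 repressed (24.6%, close to the 24.4% of all genes), with the semaphorin SEMA3G raised from 0.858 ± 0.116 to 7.85 ± 0.549 CPM. The neurotrophin receptor NGFR was induced (1.22 ± 0.119).

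Adhesion and surface proteins of kidney podocytes were among the strongly induced genes. Nephrin and its relative KIRREL2 (NEPH3) are neighbours on chromosome 19 and are known as PTF1a targets of the developing nervous system. NPHS1 gave 0.802, 1.06, 1.14 and 0.813 CPM in the Control libraries and 16, 16.3, 16.9 and 14.9 CPM in the Dox libraries. KIRREL2 gave 9.36, 9.86, 10.7 and 9.53 CPM in the Control libraries and 110.3, 115, 119 and 118 CPM in the Dox libraries. Both separated the groups completely, with log2 fold changes of 4.03 ± 0.108 and 3.56 ± 0.0422 (FDR 2.82e-49 for KIRREL2). PODXL, the podocalyxin of podocytes and of several carcinomas, gave 28.3, 26.9, 28.7 and 28.9 CPM in the Control libraries and 223, 226, 231 and 229 CPM in the Dox libraries. This 8.01-fold rise (log2 fold change 3.00 ± 0.0305) had the smallest FDR of all genes, 4.48e-52. Over 14 slit diaphragm genes tested, 6 were induced (42.9%, against 23.8% of all genes) and 3 repressed (21.4%, against 24.4%). Their median log2 fold change was 0.07.

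Matrix genes changed in both directions. Of 27 collagen chains 9 were induced (33.3%, against 23.8% of all genes) and 8 repressed (29.6%, against 24.4%). COL5A3, COL10A1 (2.00 ± 0.240) and COL3A1, from 6.36 ± 0.590 to 16.3 ± 0.505 CPM (1.35 ± 0.0713), were induced, while COL1A1, a chain of the main fibrillar collagen, fell from 153 ± 3.26 to 64.5 ± 0.994 CPM (-1.25 ± 0.0286) and COL13A1, COL21A1 (-1.40 ± 0.0991) and COL7A1 (-1.03 ± 0.0507) were repressed. Collagen-processing genes gave 13 induced (52%) and 7 repressed (28%) of 25. Among the induced were ADAMTS2, ADAMTS14 (1.45 ± 0.162), the oxidase LOXL4 (1.17 ± 0.0863) and the lysyl hydroxylase PLOD1, from 216 ± 4.96 to 434 ± 11 CPM. Of 53 proteoglycan, elastic fibre and matricellular genes 24 were repressed (45.3%, against 24.4% of all genes) and 16 induced (30.2%, against 23.8%), with a median log2 fold change of -0.19 and BGN as the most induced. The matricellular thrombospondin THBS1 rose from 6.21 ± 0.491 to 37.7 ± 1.96 CPM (2.59 ± 0.0601), the brain proteoglycan BCAN was induced (2.75 ± 0.276), and the sulfatase SULF2 that trims heparan sulfate was induced (2.40 ± 0.109). AEBP1, a collagen-binding carboxypeptidase-like protein, rose from 0.753 ± 0.0529 to 10.4 ± 0.784 CPM (3.67 ± 0.124). Gelatinase MMP2 fell from 109 ± 1.92 to 47.1 ± 1.78 CPM (-1.21 ± 0.0319), the inhibitor TIMP3 was induced (1.86 ± 0.205) and urokinase (PLAU) rose from 178 ± 3.45 to 379 ± 10.5 CPM (1.09 ± 0.0234, with exons that overlap C10orf55). Of 17 integrins 4 were induced (23.5%) and 9 repressed (52.9%), among them ITGB4 of the hemidesmosome (-1.51 ± 0.0644). Of the 10 fibroblast and stellate markers 5 were tested, with a summed level of 198 to 208 CPM in Control and 129 to 132 CPM in Dox. The fall of COL1A1 exceeded that of the sum, and ACTA2 (-0.78 ± 0.250) was also repressed. COL3A1 and THY1 (0.17 ± 0.0370) were induced and PDGFRB (-0.14 ± 0.268) did not pass the test. COL1A2, DCN, LUM, PDGFRA and FAP were not among the genes tested.

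Keratin genes changed in both directions. KRT8, the main type II keratin of ductal cells, gave 1779, 1782, 1841 and 1879 CPM in the Control libraries and 749, 741, 726 and 751 CPM in the Dox libraries. Each Dox value was under 752 CPM and each Control value above 1778 CPM (log2 fold change -1.30 ± 0.0201). Its partners KRT18 (-1.10 ± 0.0207, from 1116 ± 21.9 to 522 ± 11.9 CPM) and KRT19 (-1.07 ± 0.0513) were also repressed. In contrast KRT80, from 14.6 ± 0.758 to 41.7 ± 1.75 CPM (1.52 ± 0.0481), KRT17 (1.65 ± 0.212), KRT7 (1.64 ± 0.145), another ductal keratin, and the hair keratins KRT81 (2.29 ± 0.193) and KRT86 (2.57 ± 0.260) were induced. KRT81 and KRT86 are nearly identical and may share reads, and exons listed for KRT8 and KRT18 overlap. Over 23 keratin and desmosome genes 8 were induced (34.8%, against 23.8% of all genes) and 12 repressed (52.2%, against 24.4%). Of 13 ductal genes 3 were induced (23.1%) and 7 repressed (53.8%), with a median log2 fold change of -0.22. The surface proteins CD24 (-1.76 ± 0.0308, from 163 ± 4.4 to 48.2 ± 1.58 CPM) and CD44 (-1.14 ± 0.0190, from 1474 ± 15.8 to 671 ± 4.66 CPM) were both repressed.

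**Figure D4:**
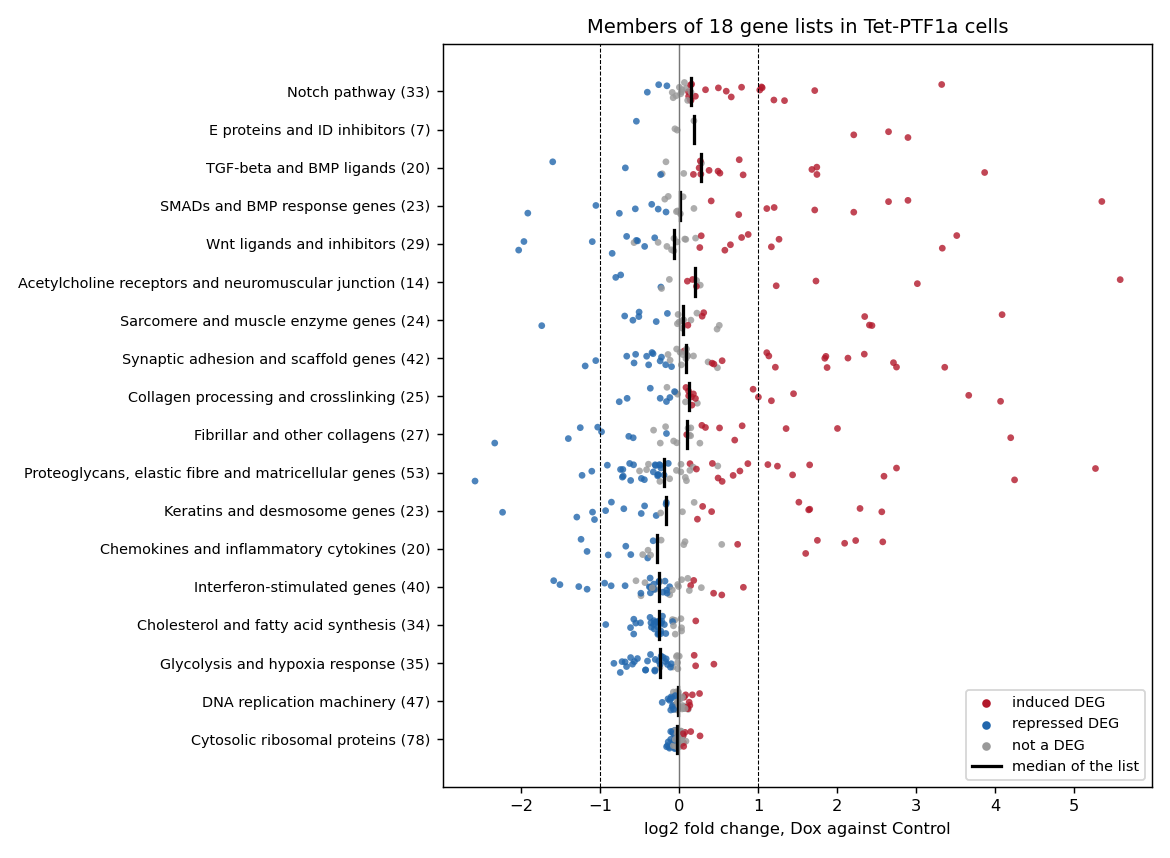
Log2 fold change of each tested member of 18 gene lists in Tet-PTF1a cells. Each row is a list, each point a gene on the horizontal axis of log2 fold change, with colours for induced, repressed and not called, a black bar for the median of the list, a grey line for the median of all genes tested and dashed lines at a 2-fold change. Cholesterol and glycolysis genes lie mostly left of the grey line within 2-fold, whereas the lists of Notch, BMP, matrix, muscle and synaptic genes have medians between -0.19 and 0.28 and members more than 2-fold to the right.

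Inflammatory genes moved in both directions and interferon-stimulated genes mostly down. The monocyte chemokine CCL2 gave 30.6, 34.1, 34.5 and 34.4 CPM in the Control libraries and 138, 137, 145 and 148 CPM in the Dox libraries, about 4-fold higher in each Dox library (log2 fold change 2.10 ± 0.0356). CXCL12 (2.23 ± 0.279), CCL26 (2.58 ± 0.416) and the cytokine IL32 (1.60 ± 0.0906) were induced, and CCL5 (-1.24 ± 0.168) and CX3CL1 (-1.17 ± 0.0600) were repressed. Of the 20 genes on this list 6 were induced (30%, against 23.8% of all genes) and 7 repressed (35%, against 24.4%). Of 40 interferon-stimulated genes 5 were induced (12.5%) and 21 repressed (52.5%, against 24.4% of all genes), with a median log2 fold change of -0.25. IFIT2 fell from 28.1 ± 0.188 to 9.27 ± 0.735 CPM (-1.59 ± 0.0573), OASL from 13.6 ± 0.551 to 4.65 ± 0.901 CPM (-1.51 ± 0.0853), IFITM1 from 70.2 ± 2.76 to 31.3 ± 0.831 CPM (-1.16 ± 0.0378), and IFIT3 was repressed (-1.27 ± 0.0708). Complement C3 was induced from 0.415 ± 0.144 to 5.06 ± 0.215 CPM (3.33 ± 0.174). The summed level of the leukocyte markers CD14, CD68 and ITGAM was 63.8 to 69.7 CPM in Control and 31.6 to 36.6 CPM in Dox. CD68 (-0.97 ± 0.0410), which made up most of the sum, and CD14 (-0.67 ± 0.293) were repressed and ITGAM (0.87 ± 0.310) was induced. PTPRC and CD3E were not among the genes tested. The endothelial marker ERG had 1.85 to 2.53 CPM in Control and 0.670 to 0.990 CPM in Dox. The cells are a cultured clone of a carcinoma line, so that these values describe marker genes in that line and not other cell types. Fewer cells that express a gene and less RNA per cell cannot be told apart in bulk RNA, and neither was tested.

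Metabolic lists moved together by small amounts. Of 34 cholesterol and fatty acid synthesis genes 26 were repressed (76.5%, against 24.4% of all genes) and 1 was induced (2.94%, against 23.8%), and none changed 2-fold (median log2 fold change -0.26). The desaturase FADS2 came nearest, from 469.9 ± 7.77 to 247 ± 3.23 CPM (-0.93 ± 0.0217, with exons that overlap FADS1). Fatty acid synthase (FASN) fell from 1024 ± 34.7 to 668 ± 7.83 CPM, the regulator SREBF1 was repressed (-0.57 ± 0.0281) and LBR was the induced member (0.21 ± 0.0261). Glycolysis and hypoxia genes gave 25 repressed (71.4%) and 3 induced (8.57%) of 35, against the same shares of all genes (median log2 fold change -0.24), again without a 2-fold change. GAPDH fell from 2484 ± 102 to 1723 ± 34.5 CPM (-0.53 ± 0.0231), LDHA (-0.57 ± 0.0308) and ENO2 (-0.83 ± 0.0421) were repressed, and the glucose transporter SLC2A1 was induced (0.44 ± 0.0672). Genes of mitosis gave 3 induced (6.52%) and 20 repressed (43.5%) of 46, and none changed 2-fold. Ribosomal proteins gave 7 induced and 23 repressed of 78 after TMM but 14 and 6 after library size scaling, and DNA replication genes 8 and 11 of 47 after TMM but 15 and 6, so that neither list had a direction independent of the scaling.

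The largest repressions were smaller than the largest inductions. WISP2, a matricellular protein of the CCN family, gave 2.36, 1.9, 2.08 and 1.92 CPM in the Control libraries and 0.230, 0.330, 0.206 and 0.335 CPM in the Dox libraries. DIO3, the deiodinase that inactivates thyroid hormone, gave 2.57, 2.46, 1.98 and 2.41 CPM in the Control libraries and 0.517, 0.188, 0.412 and 0.365 CPM in the Dox libraries. Their groups did not overlap, with log2 fold changes of -2.58 ± 0.242 and -2.49 ± 0.226, but both rested on few reads. LXN, a carboxypeptidase inhibitor (chr3:158384203-158390482), gave 128, 128, 132 and 128 CPM in the Control libraries and 25.1, 24.7, 26.3 and 26.1 CPM in the Dox libraries. NGEF, a guanine nucleotide exchange factor, gave 59.8, 59.5, 61.9 and 62.5 CPM in the Control libraries and 12.2, 13.4, 12.4 and 13.5 CPM in the Dox libraries. ABCC3, an efflux pump for bile acids and drugs, gave 52.7, 53.9, 53.1 and 52.7 CPM in the Control libraries and 11.7, 11.8, 13.2 and 11.8 CPM in the Dox libraries. These genes were measured with small spread and fell about 4-fold or more in every Dox library (log2 fold changes -2.33 ± 0.0341, -2.23 ± 0.0456 and -2.13 ± 0.0471). MXRA5, a matrix protein, fell from 161 ± 5.07 to 39.1 ± 1.33 CPM, and the remaining genes among the 15 were the transmembrane collagen COL13A1 (-2.33 ± 0.229), the uroplakin UPK1B (-2.23 ± 0.258), cyclooxygenase 1 (PTGS1, -2.14 ± 0.231), BCAS1 (-2.03 ± 0.167), DACT2 (-2.03 ± 0.0542), the transcription factor SOX21 (-2.02 ± 0.152), the mitochondrial glutamate carrier SLC25A18 (-2.01 ± 0.330), DKK1 and SMAD6. The largest loss in reads was that of AHNAK, a giant scaffold protein, which gave 4872, 4826, 4572 and 4743 CPM in the Control libraries and 2261, 2212, 2338 and 1989.8 CPM in the Dox libraries (log2 fold change -1.11 ± 0.0535). The largest gain was that of MACF1, a giant linker of actin and microtubules, which gave 913, 874, 825 and 872 CPM in the Control libraries and 1816, 1801, 1808 and 1678 CPM in the Dox libraries (log2 fold change 1.03 ± 0.0325). Neither overlapped between the groups. Other surface and secreted proteins repressed at least 2-fold were the carboxylesterase CES1 (-1.83 ± 0.0344), the peptidase ANPEP (-1.71 ± 0.0318) and clusterin (CLU, -1.57 ± 0.0301).

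Several changes lay side by side on the chromosomes. Of the 286 induced 2-fold DEGs placed on hg19, 49 (17.1%) had another induced 2-fold DEG whose start was within 100000 bases, against 4.24% of 13904 genes. Of the 214 repressed, 49 (22.9%) had a repressed neighbour, against 2.63%. Paralogs and genes with shared exons count toward both shares. The following groups were picked after the values were seen. Induced neighbours included NPHS1 with KIRREL2, HAPLN2 with BCAN and NES on chromosome 1, SEMA3G with TNNC1 and STAB1 on chromosome 3, PGAM2 with AEBP1 on chromosome 7, and the keratins KRT80, KRT7, KRT81 and KRT86 on chromosome 12. Repressed neighbours included IFIT2 with IFIT3, MEG3 with MEG8, HOXC12 with HOXC5 and SOX21 with its antisense RNA. The largest repressed cluster held the metallothioneins MT2A, MT1L, MT1E, MT1M, MT1A and MT1DP on chromosome 16, which bind zinc and copper. MT2A fell from 250.3 ± 7.32 to 79.6 ± 2.99 CPM (-1.66 ± 0.0279). Of 8 metallothioneins tested 7 were repressed, 6 of them at least 2-fold, against 24.4% and 1.52% of all genes. Their summed level went from 403 to 145 CPM, while MT1X did not pass the test (-0.10 ± 0.0726, FDR 0.263). Metallothionein genes are near-identical and may share reads. The imprinted RNA genes MEG3, from 55.6 ± 3.84 to 21.6 ± 1.24 CPM (-1.35 ± 0.0480), MEG8 (-1.42 ± 0.218) and MEG9 (-1.25 ± 0.252) were all repressed.

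The empty-plasmid line did not respond to Dox in this way. In Tet-One cells no gene of 13428 was a DEG by edgeR's quasi-likelihood test or by DESeq2 (401 genes, 2.99%, had an unadjusted p under 0.05), in libraries with a coefficient of variation of 14.4%. Small changes could be missed at that spread. The paper found a few DEGs in this line and calls its responses minor. Of the 2-fold DEGs, 162 of the 287 induced and 188 of the 214 repressed were tested in Tet-One itself. Their median log2 fold changes there were -0.02 and -0.01, and none of their changes exceeded 0.79 in size. For the remaining 2-fold DEGs the response of Tet-One to Dox was not measured in this fit. The response itself was compared by the interaction of line and Dox, which could be fitted for genes in both tables, 193 of the 287 induced and 198 of the 214 repressed. Of these, 180 and 180 responded differently from Tet-One, against 12.8% of 13521 genes. Since the genes were chosen for their change in Tet-PTF1a, these counts describe how far that change exceeded the one in Tet-One. One Tet-One library, Dox replicate 1, stood apart, with an SD of 0.591 (log2 scale) around the average of its 3 companion Dox libraries, against 0.139 to 0.251 for the other Tet-One libraries and 0.146 to 0.183 for the Tet-PTF1a libraries. Without it the sum of 360 was 375. In Tet-One itself 1 of 13407 genes then passed the test, HMOX1, which is none of the 501 genes. An unadjusted p under 0.05 was found for 1636 genes, against 401 with that library kept. That fit was added after the data were seen.

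Most of these genes also responded differently in Tet-MIST1 cells. By the same test 187 of 193 induced and 192 of 198 repressed genes responded differently from Tet-MIST1, against 36.4% of all genes. Of the induced genes 181 were tested in Tet-MIST1 itself, where 30 were induced and 26 repressed (11.9% and 8.77% of 13623 genes), and of the 189 repressed genes 29 were repressed and 18 induced. A 2-fold change in both lines was found for 4 induced genes, of which ATOH8 and RAET1G are described, chosen after their values were seen. ATOH8 changed by 5.35 in Tet-PTF1a and 1.08 in Tet-MIST1 on the log2 scale (FDR of the difference 1.40e-12). RAET1G, a ligand of the NKG2D receptor whose exons overlap RAET1E-AS1, changed by 1.55 and 1.57 (FDR 0.927), so that no difference between the lines was shown for it. CCM2L went in opposite directions, -1.07 in Tet-PTF1a and 1.17 in Tet-MIST1. BCHE, which did not reach 2-fold in Tet-MIST1, changed by 1.23 and 0.97, a difference that did not pass the test (FDR 0.627).

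**Figure D5:**
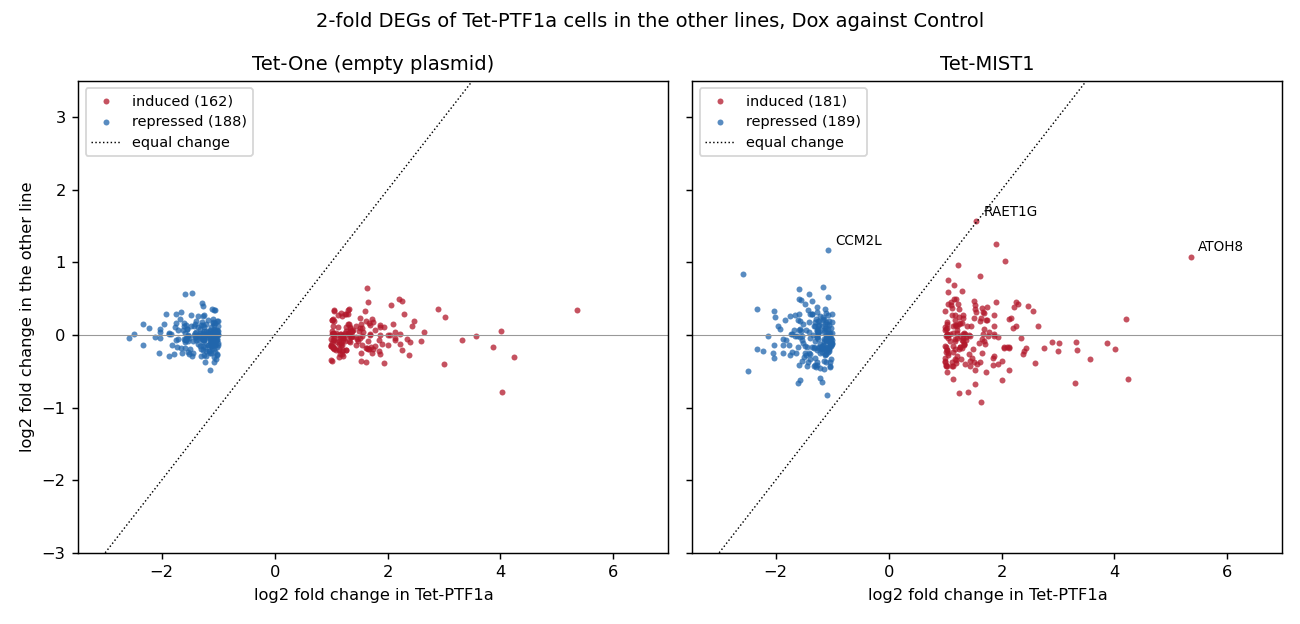
Response of the Tet-PTF1a 2-fold DEGs in the other lines. Each point is a gene, with its log2 fold change in Tet-PTF1a on the horizontal axis and its log2 fold change in Tet-One (left) or Tet-MIST1 (right) on the vertical axis, and the dotted line marks equal change. Induced genes (162 and 181 shown) and repressed genes (188 and 189 shown) lie along a vertical level of 0 in Tet-One, and in Tet-MIST1 the labelled ATOH8, RAET1G and CCM2L stand away from it.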

How the data were processed

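Polyadenylated RNA of the 8 Tet-PTF1a libraries was compared, with 8 Tet-One and 8 Tet-MIST1 libraries for reference, each line as 4 biological replicates with and 4 without Dox. The authors aligned paired-end Illumina reads to hg19 with TopHat, applied a filter of over 0.5 CPM in 4 or more samples, and the deposited values used here are raw read counts of each gene. The submitters' processing notes also name HTSeq, DESeq and edgeR. Annotation and strand use of the counting are not given in the sources used here. The deposited CPM columns (24 columns, 1 per sample) and the authors' own comparisons (log2 fold change, p-value and FDR) were not used. Of the listed gene names 20 had been turned into dates.

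Dox and Control counts were compared by edgeR 4.0.16 (R 4.3.3; quasi-likelihood test, TMM, robust estimation, prior count of 2, genes above 0.5 CPM in at least 4 of 8 libraries) with Benjamini-Hochberg adjustment over all genes, and responses of lines by the interaction of line and Dox. CPM values here are computed on the TMM-scaled library size. Where no library of a group exceeded 3 counts, the fold is a bound against 3 counts per library. The procedure recovered all of 200 genes changed in simulated counts of the Tet-PTF1a comparison. The changed genes were drawn from those above 1 CPM in Control, with changes beyond the 2-fold limit and the same spread for every gene. Recovery of genes below 1 CPM in Control, or with changes near the limit, was not tested. Chi-square per degree of freedom between replicates ran from 1.38 to 4.25, so that replicates differed by more than counting error. This cannot show that the replicates were independent cultures. The coefficient of variation was 2.80% in Tet-PTF1a, 6.58% in Tet-MIST1 and 14.4% in Tet-One libraries. The FDR of a Tet-PTF1a gene measures its change against the small spread of these libraries. Labels number the replicates, and deviations of same-numbered Control and Dox libraries correlated between -0.0181 and 0.0319, so that the numbers were not taken as pairs.

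Named were the 15 most induced and 15 most repressed DEGs (at least 1 CPM in the higher group, no overlap), the 6 largest gains and 6 largest losses in CPM, up to 5 2-fold DEGs per direction of each list, DEGs with 3 counts or fewer throughout a group, those nearest the 2-fold limit, and PTF1A, 211 genes in all. Of the 501 2-fold DEGs, 210 were on one of the 74 lists and families. Other list members in the text were singled out after their values were seen. The members and lists were chosen with earlier results of these data known. Alternatives were other tests, scalings and filters, a replicate block, a joint fit, other fold limits, a longer promoter window and each library left out. Some genes that the rule names are not reported here.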

Additional observations from a re-analysis of the deposited data

Results flagged for a closer look

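In 30 of 426 groups of 4 libraries (7.04%), 1 library lay far from the other 3, judged by its gap to the nearest of them as a share of the range of the group. The groups are the Control and the Dox libraries of the 211 named genes and of the shares of counts of the induced and of the repressed 2-fold DEGs. Chance gives about 1 in 20 such groups. The values below are the level of that library, the range of the other 3 and the gap share. Control replicate 1, the deepest library, was the distant one for AKAP12 (2655 CPM in replicate 1 against 2827 to 2849, 0.891), CCL2 (30.6 CPM in replicate 1 against 34.1 to 34.5, 0.876), CHAC1 (28.8 CPM in replicate 1 against 16.5 to 18.2, 0.866), CSGALNACT1 (2.85 CPM in replicate 1 against 3.86 to 4.02, 0.867), ID3 (44.6 CPM in replicate 1 against 51.1 to 52.2, 0.850), MCF2L2 (1.77 CPM in replicate 1 against 1.23 to 1.29, 0.897) and NUPR1 (20.7 CPM in replicate 1 against 12.4 to 13.1, 0.917). It was the highest of the 4 for CHAC1 and NUPR1, both targets of the integrated stress response, and both genes were repressed DEGs without it as well, CHAC1 with a log2 fold change of -0.95 and thus no longer 2-fold, and NUPR1 with -1.33. Other Control libraries were distant for CHRNA1 (0.0262 CPM in replicate 4 against 0 to 0, 1), GRIK4 (0.289 CPM in replicate 4 against 0.496 to 0.519, 0.902), HOXC12 (2.58 CPM in replicate 3 against 3.58 to 3.68, 0.915), IFIT2 (27.8 CPM in replicate 3 against 28.2 to 28.2, 0.841), LXN (132 CPM in replicate 3 against 128 to 128, 0.958), PCSK5 (0.298 CPM in replicate 3 against 0 to 0.0262, 0.912), PTF1A (0 CPM in replicate 3 against 0.0472 to 0.0560, 0.842), SCN9A (3.83 CPM in replicate 4 against 3.28 to 3.32, 0.914), SFRP1 (26.5 CPM in replicate 4 against 23.3 to 23.4, 0.958) and SLCO2B1 (0.168 CPM in replicate 2 against 0.0262 to 0.0496, 0.835). Several of these rest on a few reads, as for CHRNA1, PTF1A, PCSK5 and SLCO2B1.

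Among the Dox libraries the distant one was found for ABCC3 (13.2 CPM in replicate 3 against 11.7 to 11.8, 0.888), C1orf95 (0.689 CPM in replicate 1 against 1.13 to 1.22, 0.839), CCL5 (0.895 CPM in replicate 2 against 1.03 to 1.04, 0.961), DKK1 (58.2 CPM in replicate 1 against 54 to 54.6, 0.849), DRD2 (0.942 CPM in replicate 2 against 0.517 to 0.579, 0.855), EPHB1 (2.4 CPM in replicate 2 against 3.11 to 3.16, 0.931), HEY1 (14.1 CPM in replicate 3 against 15 to 15.2, 0.831), HOXC5 (1.88 CPM in replicate 2 against 1.49 to 1.55, 0.866), KRT86 (1.84 CPM in replicate 1 against 1.61 to 1.65, 0.843), MACF1 (1678 CPM in replicate 4 against 1801 to 1816, 0.886), SHH (2.76 CPM in replicate 1 against 2.22 to 2.27, 0.920), SMAD6 (4.25 CPM in replicate 1 against 3.06 to 3.26, 0.835) and TNFRSF9 (0.670 CPM in replicate 3 against 0.565 to 0.579, 0.873). The Control and Dox libraries of all these genes did not overlap.

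Of the 2-fold DEGs fitted in the interaction of line and Dox (193 induced and 198 repressed), 360 responded differently from Tet-One and 379 from Tet-MIST1, against 12.8% and 36.4% of all genes. The genes were chosen for a 2-fold change in Tet-PTF1a, so that these counts are largely set by that choice and describe the response without testing it.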

How the results depend on the processing

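The number of DEGs was 6775 and ranged between 6109 and 6456 when any single library was left out. Induced 2-fold DEGs (287) ran from 214 to 290 and repressed (214) from 186 to 217. The lowest induced counts, 214 to 223, came without a Dox library, where the filter still asked for 4 libraries above 0.5 CPM and 3 Dox libraries were left. Among the named genes not tested then were PTF1A, SLCO2B1 and CHRNA1, and without a Control library WISP2. The 2-fold DEGs that differed from Tet-One (360) ran from 344 to 375 and from Tet-MIST1 (379) from 374 to 382. One fit over all 24 libraries, with 13521 genes, gave 3131 DEGs. With at least 10 counts in every library 186 induced genes were left. A test against a 2-fold change (glmTreat) gave 179 induced and 93 repressed genes, a limit of 1.5-fold 619 and 620, and a limit of 4-fold 78 and 14. In promoters of 1000 bases before to 100 after the hg19 start, CANNTG occurred in 96.9% of induced and 99.1% of repressed genes, CAGCTG in 52.8% and 44.4%, and the TC box in 23.8% and 27.1%, against 97.8%, 41.6% and 25.6% of all genes tested. DESeq2 gave 5788 DEGs, 308 of them induced at least 2-fold. Same-numbered libraries did not deviate together, and a fit with a replicate block gave 6706 DEGs, 289 induced and 213 repressed at least 2-fold. A named gene that a fit did not test gave no value to the following counts. No call of a named gene reversed where it was tested under these alternatives, while 9 values lost significance and 3506 did not. These were MALAT1 with the block (log2 fold change -0.56, adjusted p 0.0877) and without Control replicate 2 or 3 or Dox replicate 2, 3 or 4, and EEF1A1, PLEKHG2 and RPS16 in the joint fit. The cause was not tested. Depth limits the genes with few Control reads, for which a fold is a bound.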

Other observations

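Several lists held more repressed and fewer induced genes than all genes tested, of which 24.4% were repressed and 23.8% induced. Of 28 genes of the homeobox clusters, which set position along the body axis, 1 was induced (3.57%) and 20 were repressed (71.4%), with a median log2 fold change of -0.30 against 0.001 over all genes. HOXC12 fell from 3.37 ± 0.530 to 1.42 ± 0.0821 CPM (-1.23 ± 0.149 on the log2 scale) and HOXC5 from 3.39 ± 0.449 to 1.6 ± 0.189 CPM (-1.07 ± 0.147). Of 41 genes of the integrated stress response 5 were induced (12.2%) and 14 repressed (34.1%), led by the stress regulator NUPR1, from 14.7 ± 4.01 to 4.96 ± 0.488 CPM (-1.59 ± 0.257), and the glutathione-degrading CHAC1, from 20.1 ± 5.85 to 8.73 ± 1.23 CPM (-1.22 ± 0.257). Targets of the antioxidant factor NRF2 gave 3 induced (12%) and 11 repressed (44%) genes of 25, with TXNRD1 at -0.34 ± 0.0217 and NQO1 at -0.27 ± 0.0267. Of 33 histone genes 1 was induced (3.03%) and 15 were repressed (45.5%), among them HIST1H1E (-1.07 ± 0.297), in libraries made from polyadenylated RNA.

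Other families had more induced than repressed members. Of 36 protocadherins, adhesion proteins of neurons, 11 were induced (30.6%) and 3 repressed (8.33%) after TMM, and 7 were induced by DESeq2, and in the beta and gamma clusters, picked after the values were seen, 10 of 23 were induced and none repressed (median log2 fold change 0.32). PCDHGA10 (1.22 ± 0.216) and PCDHB12 (1.01 ± 0.266) were induced at least 2-fold, and these genes are similar enough to share reads. Enzymes that build and trim heparan and chondroitin sulfate gave 12 induced (46.2%) and 4 repressed (15.4%) genes of 26, with the sulfotransferase HS3ST5 raised from 0.174 ± 0.0623 to 3.59 ± 0.601 CPM. Zinc finger genes named ZNF gave 86 induced (18.8%) and 60 repressed (13.1%) of 457, both below the shares of all genes, and 1 in each direction changed 2-fold. Solute carriers gave 56 induced and 71 repressed of 228 after TMM but 65 and 57 after library size scaling.

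Of the 6 largest gains in CPM, 3 came from neighbouring genes on chromosome 19, between positions 39903750 and 39967308 of hg19, singled out after their values were seen. PLEKHG2 rose from 1647 ± 23.4 to 2305 ± 26.8 CPM (0.48 ± 0.0181), SUPT5H from 1993 ± 32.6 to 2601 ± 25.6 CPM (0.38 ± 0.0179) and RPS16 from 5538 ± 80.5 to 6132 ± 176 CPM (0.15 ± 0.0179), all under 2-fold and without overlap between the groups. In the joint fit of all 24 libraries PLEKHG2 (FDR 0.0539) and RPS16 (FDR 0.615) did not pass the test.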
